A study of Mus musculus with 9 samples.

Results

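The hematopoietic growth factor receptors described here are the products of 9 genes: Kit, Flt3, Csf1r, Csf2ra, Csf2rb, Csf2rb2, Csf3r, Il3ra and Il6ra. They were chosen by name, and every probe set (a group of short probes on the array read as 1 measurement) annotated with exactly 1 of these symbols was taken. This gave 15 of the 45037 probe sets tested, or 9 of the 18193 genes that have a probe set of their own. Csf1r had 3 probe sets, Kit, Csf2ra, Csf2rb and Il6ra had 2 each, and the other 4 genes had 1. One further probe set is annotated to Csf2rb2 and Csf2rb together and was not a member.

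RNA was measured on 9 arrays in 3 groups of 3, all from bone marrow of mice 6 weeks old. NcstnKO granulocyte-monocyte progenitors (GMP) came from Ncstn flox/flox Mx1-cre+ mice, and WT GMP and WT LSK cells came from Ncstn flox/flox mice without the Cre. GMP were sorted as lineage-negative, cKit-positive, Sca1-negative cells with CD34 and FcγRII/III on their surface, and they are the committed precursors of granulocytes and monocytes. LSK cells, lineage-negative with cKit and Sca1, are the fraction that holds hematopoietic stem cells and multipotent progenitors. PolyIC, a synthetic RNA that triggers interferon, was given to all mice, WT included, in 3 injections of 20 µg for each g of body weight, starting at the age of 14 days, and bone marrow was taken 4 weeks later. Mx1-Cre is switched on by interferon in many tissues, so it is not limited to progenitors, and only the knockouts carried it. An effect of the Cre and an effect of losing nicastrin, the subunit of the γ-secretase protease that Ncstn encodes, cannot be told apart. The labels do not say whether arrays of a group came from separate mice, so the p-values measure the spread between these samples, which may in part be technical. Sex-linked transcripts, given below, differed within WT GMP and within LSK, so the arrays of each WT group did not all come from the same mice.

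Growth factor receptors pass signals for survival, division and lineage choice from cytokines to blood progenitors. Kit, Flt3 and Csf1r are related receptor tyrosine kinases, which carry their own kinase. The other receptors have none: ligand-binding α chains (Csf2ra, Il3ra, Il6ra) join a shared signalling chain, Csf3r pairs with itself, and all of them work through JAK kinases bound inside the cell and the STAT factors that these phosphorylate. In bone marrow, Flt3 is known from multipotent and lymphoid-primed progenitors, Csf1r from the monocyte and macrophage lineage, and Csf3r from the neutrophil lineage.

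Promoter sequences are shown for Flt3 and Kit, whose transcripts were lower in WT GMP than in LSK, for Il6ra, whose transcript was higher, and for Csf2rb2, the only one of the 7 members listed with a promoter whose window held the longer PU.1-type motif. Each is a window of 300 bases that ends shortly after the gene start, from RefSeq's GRCm38.p6, 5′ to 3′ on the strand of the gene. Capitals mark every match, on either strand, to any of 6 motifs. The PU.1-type motif was GAGGAAGT, and the core of ETS-family sites, contained in it, was GGAA. The C/EBP palindrome was TTGCGCAA, and a degenerate form that contains it was TTNCNNAA. For RUNX factors the letters TGTGGT were searched. For factors of the GATA family the motif was AGATAA.
Flt3, chr5:147400440-147400739, minus strand: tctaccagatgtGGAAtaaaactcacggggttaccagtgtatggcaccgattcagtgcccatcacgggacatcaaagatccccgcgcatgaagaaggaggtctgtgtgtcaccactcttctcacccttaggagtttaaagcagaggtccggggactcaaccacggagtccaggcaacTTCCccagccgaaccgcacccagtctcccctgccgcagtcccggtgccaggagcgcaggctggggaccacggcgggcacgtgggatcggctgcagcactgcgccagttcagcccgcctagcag
Kit, chr5:75574737-75575036, plus strand: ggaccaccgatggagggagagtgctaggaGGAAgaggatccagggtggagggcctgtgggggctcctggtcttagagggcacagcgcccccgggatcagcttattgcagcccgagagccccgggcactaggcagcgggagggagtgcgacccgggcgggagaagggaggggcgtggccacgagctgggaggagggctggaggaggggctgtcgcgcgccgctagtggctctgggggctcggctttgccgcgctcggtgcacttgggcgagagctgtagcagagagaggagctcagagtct
Il6ra, chr3:89913147-89913446, minus strand: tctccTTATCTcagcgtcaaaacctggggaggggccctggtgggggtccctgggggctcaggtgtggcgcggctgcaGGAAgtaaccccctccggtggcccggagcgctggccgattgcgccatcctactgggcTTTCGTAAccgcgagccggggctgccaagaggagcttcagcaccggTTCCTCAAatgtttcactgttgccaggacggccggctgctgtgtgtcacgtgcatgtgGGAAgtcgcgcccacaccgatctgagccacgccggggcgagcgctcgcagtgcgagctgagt
Csf2rb2, chr15:78305672-78305971, minus strand: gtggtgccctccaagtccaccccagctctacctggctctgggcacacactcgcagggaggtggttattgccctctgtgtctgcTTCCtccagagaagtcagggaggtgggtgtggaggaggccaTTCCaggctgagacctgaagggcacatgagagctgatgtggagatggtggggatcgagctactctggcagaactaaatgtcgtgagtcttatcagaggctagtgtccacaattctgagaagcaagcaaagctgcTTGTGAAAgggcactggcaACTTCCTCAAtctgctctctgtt

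Promoters were listed for 7 of the 9 genes, and Kit had a second start 4 bases downstream. The Flt3 window held 2 matches to GGAA and the Kit window 1, and neither held any of the longer motifs. The Il6ra window held 3 matches to GGAA, the degenerate C/EBP motif and 1 match to the GATA motif. GAGGAAGT stood in the Csf2rb2 window alone among these 7 genes, where it overlapped a match to the degenerate C/EBP motif. Over all 32851 promoters of the same length, the ETS core was found in 96%, the degenerate C/EBP motif in 40.7%, the RUNX motif in 16.8% and the GATA motif in 11.2%. The PU.1-type motif was found in 3.2% and the C/EBP palindrome in 0.183%. A match is a description of the letters only.

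All 15 probe sets lay above the background limit on all 9 arrays, with log2 intensities of 5.97 to 12.30 against limits of 4.30 to 4.57 set by unspiked bacterial control probes. Ncstn itself had log2 intensities of 7.79, 7.78 and 7.76 in NcstnKO GMP, against 9.25, 9.31 and 9.26 in WT GMP. It was 2.82-fold lower in NcstnKO GMP (log2 change -1.50, SE 0.08, adjusted p 0.00132). Median intensities were 65.3 to 67.9 in NcstnKO GMP, 67.2 to 68.6 in WT GMP and 98.3 to 103 in LSK, so the deposited values were not on 1 level between GMP and LSK. Sex-linked transcripts disagreed with the labelled sex in 4 arrays: NcstnKO GMP 2 and 3, labelled male, carried the female pattern, and WT GMP 2 and 3, labelled female, carried the male one. By these transcripts all 3 NcstnKO arrays were female, while WT GMP and LSK had 1 female and 2 male arrays each, and receptor calls and list counts that changed without these 4 arrays are given with that value, from a fit that keeps 1 NcstnKO GMP, 1 WT GMP and 3 LSK arrays and takes its spread from LSK alone. Of 10 measured myeloid progenitor markers, 9 rose and 1 fell in WT GMP against LSK, with Elane, Ms4a3 and Prtn3 among the rises. Of 10 stem cell markers 9 fell, among them Mecom, Esam and Procr, so most genes of these lists followed the labels. The lists as chosen included genes of gate antigens (Cd34, Fcgr3, Fcgr2b and, for Sca1, Ly6a), whose direction was not independent of the sort. Markers of mature lineages also fell in WT GMP, 9 of 10 late neutrophil, 7 of 9 megakaryocyte and 6 of 14 erythroid ones. Lymphoid markers fell for 11 of 15 and rose for 1. Mast cell, basophil and eosinophil markers went the other way, with 10 of 12 higher. Over all probe sets 28.8% fell. Without the 4 arrays of discordant sex, 3 myeloid progenitor markers rose and 7 stem cell markers fell. These are sorted bulk populations, in which fewer cells of a type and less RNA per cell cannot be told apart.

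**Figure D1:**
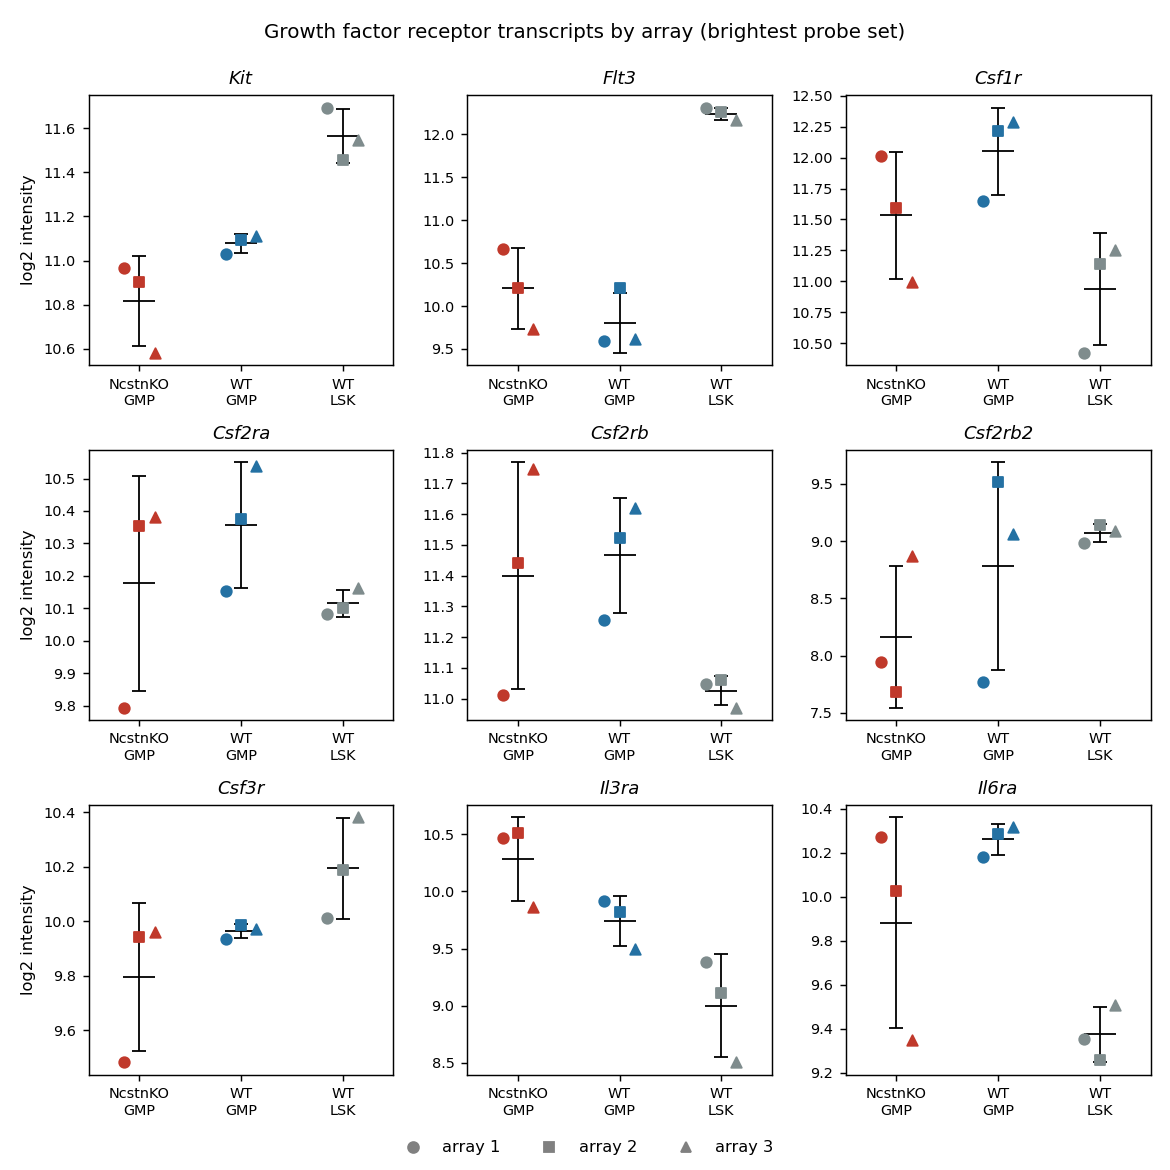
Log2 intensity of the brightest probe set of each of the 9 receptors on every array. Red points are NcstnKO GMP, blue WT GMP and grey WT LSK, the marker shape gives the array number, and lines with bars show the mean and SD of 3 arrays. Each panel has its own vertical scale. Flt3 lay between 12.16 and 12.30 on the 3 LSK arrays and at or below 10.67 on the 6 GMP arrays, while Csf1r, Il3ra and Il6ra were higher on all WT GMP arrays than on any LSK array.

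In WT GMP against WT LSK, the comparison of committed with multipotent cells, 8 of the 15 probe sets passed an adjusted p of 0.05, and they belonged to 4 genes. Csf1r (3 of 3 probe sets) and Il6ra (2 of 2) rose, and Flt3 (1 of 1) and Kit (2 of 2) fell. Over all probe sets tested, 34.9% passed in this comparison, 6.04% higher and 28.8% lower. Arrays of the groups did not overlap for 11 of the 15 members, 7 of them higher in WT GMP, where 51.8% of all probe sets did not overlap. At an unadjusted p under 0.05 there were 10 members, against 45.6% of all. The median change of all probe sets was -0.20 on the log2 scale in the deposited values, 0.06 after quantile normalization and 0.15 after centring each array on its 75th percentile, and all 15 member changes were lower in the deposited values than under either other scaling. With quantile normalization 8 members rose and 2 fell, and with centring 9 rose and 1 fell.

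Flt3, the receptor of Flt3 ligand, had the largest change of the 15 probe sets. Its log2 intensities were 10.67, 10.21 and 9.74 in NcstnKO GMP, 9.59, 10.21 and 9.62 in WT GMP, and 12.30, 12.26 and 12.16 in LSK. Every LSK array was above every GMP array, and the LSK arrays lay within 0.14 of each other while the WT GMP arrays spanned 0.62. Flt3 was 5.40-fold lower in WT GMP than in LSK (log2 change -2.43, SE 0.24, 95% interval -2.99 to -1.88, adjusted p 0.000243). Relative to the median of all probe sets the change was -2.24. The fall passed under all 23 alternatives, with log2 changes of -2.70 to -2.09 and adjusted p up to 0.0196. Flt3 is also a gene of early lymphoid cells, and in WT GMP against LSK most lymphoid markers went the same way. Of 15 markers 11 fell and 1 rose, beside 28.8% and 6.04% of all probe sets. Their summed level was 13.79 to 13.91 in WT GMP and 14.32 to 14.78 in LSK (log2). Without the arrays of discordant sex 6 of the 15 fell and 0 rose. Their part in the Flt3 difference was not tested.

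Kit encodes the receptor of stem cell factor, and cKit protein was required by both gates, so its transcript was compared among cells already selected for the protein. The brighter Kit probe set had log2 intensities of 10.96, 10.90 and 10.58 in NcstnKO GMP, 11.03, 11.09 and 11.11 in WT GMP, and 11.69, 11.45 and 11.54 in LSK. The groups did not overlap, with NcstnKO GMP lowest and LSK highest. The second probe set gave 7.64, 8.15 and 7.63 in NcstnKO GMP, 8.22, 8.67 and 8.91 in WT GMP, and 9.62, 9.08 and 9.26 in LSK, with the same order of groups and again no overlap. WT GMP was lower than LSK by log2 changes of -0.49 (SE 0.12, adjusted p 0.0145) and -0.73 (SE 0.22, adjusted p 0.0356). Relative to the median of all probe sets, which was below 0 as well, the changes were -0.29 and -0.53. The call of the brighter probe set was lost with centring (-0.14, adjusted p 0.393), without the arrays of discordant sex (-0.54, adjusted p 0.125), with the Actb ratio in the fit (adjusted p 0.0606) and without LSK 1 (-0.42, adjusted p 0.0509). The call of the second was lost with centring (-0.38, adjusted p 0.211), with quantile normalization (-0.33, adjusted p 0.301), with same-numbered arrays as a block (adjusted p 0.0728), with the labelled sex as a covariate (adjusted p 0.0811) and without the arrays of discordant sex (-1.11, adjusted p 0.0785). It also rested on single arrays, with adjusted p of 0.112 without LSK 1, 0.0649 without LSK 3, 0.109 without WT GMP 1 and 0.0720 without WT GMP 2.

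Csf1r, the receptor of the macrophage growth factors CSF1 and IL-34, gave the same picture in 3 probe sets. The brightest had log2 intensities of 12.01, 11.59 and 10.99 in NcstnKO GMP, 11.65, 12.22 and 12.29 in WT GMP, and 10.43, 11.14 and 11.25 in LSK. WT GMP lay above LSK on all arrays, but array 1 was the low one in both of these groups, and NcstnKO GMP overlapped with both. The second probe set gave 10.03, 9.85 and 9.29 in NcstnKO GMP, 9.86, 10.59 and 10.61 in WT GMP, and 8.63, 9.28 and 9.62 in LSK. The third gave 8.90, 8.86 and 8.06 in NcstnKO GMP, 8.75, 9.53 and 9.48 in WT GMP, and 7.62, 8.30 and 8.58 in LSK. All 3 probe sets had array 3 lowest in NcstnKO GMP and array 1 lowest in both WT groups. The log2 changes of WT GMP against LSK were 1.11 (SE 0.31, 2.16-fold, adjusted p 0.0242), 1.18 (SE 0.31, adjusted p 0.0190) and 1.09 (SE 0.33, adjusted p 0.0327). These calls rested on single arrays. Without LSK 1 the brightest probe set changed by 0.85 (adjusted p 0.0754), without WT GMP 2 by 1.03 (adjusted p 0.0745) and without WT GMP 3 by 0.99 (adjusted p 0.0777). With the Actb ratio in the fit all 3 calls were lost (adjusted p 0.0517, 0.0682 and 0.101). With the labelled sex as a covariate the calls of the brightest and the third were lost (adjusted p 0.0779 and 0.0701). Without the 4 arrays of discordant sex the changes of the 3 probe sets were 0.71 (adjusted p 0.298), 0.69 (adjusted p 0.351) and 0.59 (adjusted p 0.411). Between same-numbered arrays the differences were 1.22, 1.08 and 1.04, a spread of 0.18 against 0.82 within LSK.

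For monocyte and macrophage markers, which could accompany Csf1r, 1 of 14 rose (Ccr2) and 6 fell in WT GMP against LSK, with C1qc, a complement gene of macrophages, at -0.76 (adjusted p 0.00603). The direction of this list depended on scaling, with 2 rises and 0 falls after quantile normalization and 3 rises and 2 falls after centring, and without the arrays of discordant sex it was 0 rises and 1 fall. Their summed level was 12.94 to 13.03 in WT GMP and 12.34 to 12.81 in LSK (log2), and their part in the Csf1r difference was not tested. The 3 genes with profiles most like Csf1r over the 9 arrays were Irf8, Klrb1f and Diras2. The root-mean-square differences between centred log2 profiles were 0.195, 0.216 and 0.249, among 14259 candidate genes. For Flt3 they were Fam131a (0.175), Fbxo32 (0.215) and Kcnd1 (0.221), and for Il3ra they were Bambi (0.249), Rapsn (0.250) and Stx3 (0.254).

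Il6ra, the chain that binds interleukin-6, had log2 intensities in its brighter probe set of 10.27, 10.02 and 9.35 in NcstnKO GMP, 10.18, 10.29 and 10.32 in WT GMP, and 9.36, 9.26 and 9.51 in LSK. The WT GMP arrays lay within 0.14 of each other and above all LSK arrays, while NcstnKO array 3 lay at the LSK level. Its second probe set gave 6.77, 6.63 and 6.40 in NcstnKO GMP, 6.63, 7.19 and 7.05 in WT GMP, and 6.26, 5.97 and 6.27 in LSK. WT GMP was higher than LSK by 0.89 (SE 0.21, 1.85-fold, adjusted p 0.0123) and 0.79 (SE 0.17, adjusted p 0.00760). The call of the brighter probe set was lost with the labelled sex as a covariate (0.70, adjusted p 0.0740) and without the arrays of discordant sex (0.81, adjusted p 0.0652). The call of the second was lost without the arrays of discordant sex (0.47, adjusted p 0.196) and with the Actb ratio in the fit (0.67, adjusted p 0.0526). Il6st, the signalling partner of this chain, was 10.24 on average in WT GMP and 10.55 in LSK, a log2 change of -0.31 that did not pass (adjusted p 0.225).

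Il3ra encodes the chain that binds interleukin-3. Its log2 intensities were 10.47, 10.52 and 9.86 in NcstnKO GMP, 9.91, 9.82 and 9.50 in WT GMP, and 9.38, 9.11 and 8.50 in LSK. Array 3 was the lowest of its group in all 3 groups, and WT GMP lay above LSK without overlap. The log2 change of WT GMP against LSK was 0.74 (SE 0.26, 95% interval 0.16 to 1.33) and did not pass (adjusted p 0.0514), although it passed in 10 of 23 alternatives. With same-numbered arrays as a block, where the differences were 0.53, 0.71 and 0.99, the adjusted p was 0.0140, and after quantile normalization the change was 1.11 (adjusted p 0.0140). NcstnKO GMP was 2.43-fold higher than LSK (log2 change 1.28, SE 0.26, adjusted p 0.00410), and this passed in 22 of 23 alternatives. The exception was the fit without the arrays of discordant sex (1.47, adjusted p 0.0761). The interleukin-3 receptor is well known from mast cells, basophils and eosinophils. Of their markers 10 of 12 rose in WT GMP against LSK, among them Prg3, Prg2 and Epx, against 6.04% of all probe sets. Fewer passed without the arrays of discordant sex, where the median change was 1.97 beside 2.05 with all arrays. In NcstnKO against WT GMP, where Il3ra changed by 0.54, these markers had a median change of -0.16. Their summed level was 14.93 to 15.20 in NcstnKO GMP, 15.16 to 15.42 in WT GMP and 12.81 to 13.60 in LSK (log2), and their part in the Il3ra difference was not tested.

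**Figure D2:**
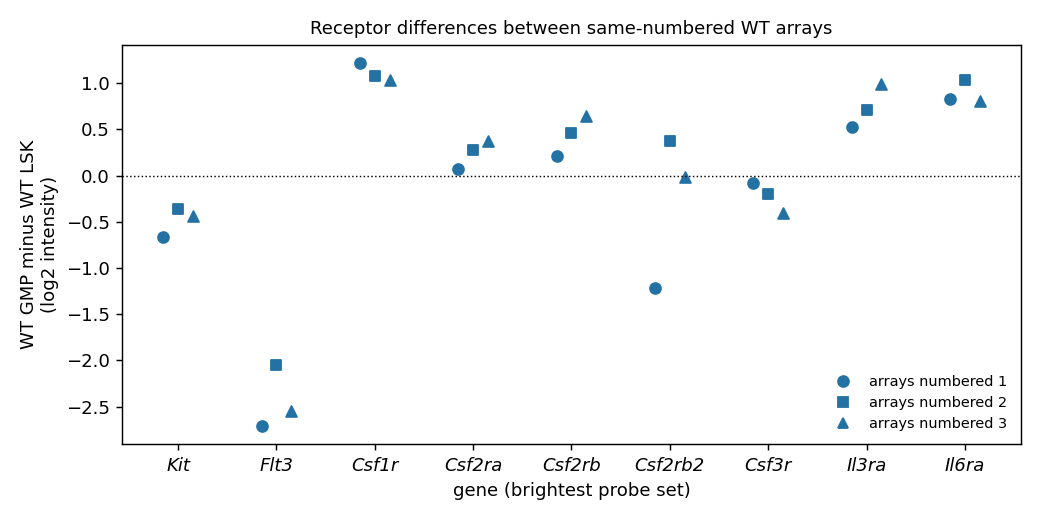
Difference in log2 intensity between the WT GMP and the WT LSK array of the same number, for the brightest probe set of each receptor. Circles, squares and triangles are arrays numbered 1, 2 and 3, and the dotted line marks no difference. All 3 differences were above 0 for Csf1r, Csf2ra, Csf2rb, Il3ra and Il6ra and below 0 for Kit, Flt3 and Csf3r, and Csf2rb2 ran from -1.22 to 0.38.

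The chains shared or used by GM-CSF and interleukin-3 did not pass in WT GMP against LSK. Csf2rb, the common signalling chain of interleukin-3, interleukin-5 and GM-CSF, had log2 intensities of 11.01, 11.44 and 11.75 in NcstnKO GMP, 11.26, 11.52 and 11.62 in WT GMP, and 11.05, 11.06 and 10.97 in LSK. All WT GMP arrays lay above LSK, by a log2 change of 0.44 (SE 0.18, 95% interval 0.03 to 0.85, adjusted p 0.0899). This passed after quantile normalization (0.57, adjusted p 0.0345) and after centring (0.79, adjusted p 0.00899). The second Csf2rb probe set had 9.86, 10.26 and 10.60 in NcstnKO GMP, 10.16, 10.68 and 10.61 in WT GMP, and values between 9.93 and 10.19 in LSK, and WT GMP against LSK gave 0.44 (SE 0.20, adjusted p 0.130). It too passed after quantile normalization (0.67, adjusted p 0.0327) and after centring (0.79, adjusted p 0.0158). Csf2rb2, the mouse chain specific to interleukin-3 and the neighbour of Csf2rb with no gene listed between them, had 7.95, 7.69 and 8.87 in NcstnKO GMP, 7.77, 9.51 and 9.06 in WT GMP, and 8.99, 9.14 and 9.09 in LSK. Its arrays scattered over 1.18 in NcstnKO GMP and 1.74 in WT GMP, against 0.15 in LSK, so the interval of WT GMP against LSK was wide (-0.29, SE 0.44, 95% interval -1.29 to 0.72, adjusted p 0.647). Without the arrays of discordant sex, which leaves WT GMP array 1 alone, the change was -1.30 (adjusted p 0.0289). The probe set annotated to both Csf2rb2 and Csf2rb had 8.44, 8.45 and 8.88 in NcstnKO GMP, 8.27, 8.68 and 8.42 in WT GMP, and 8.05, 8.47 and 7.82 in LSK, with overlap between all groups. Transcripts of the 2 genes are very alike, so signal of one may be read by probes of the other, and their separate values are uncertain.

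Csf2ra, the chain that binds GM-CSF, had log2 intensities of 9.79, 10.35 and 10.38 in NcstnKO GMP, 10.15, 10.37 and 10.54 in WT GMP, and 10.08, 10.10 and 10.16 in LSK. The groups overlapped, and WT GMP against LSK gave 0.24 (SE 0.17, 95% interval -0.14 to 0.63, adjusted p 0.301), a change that passed after centring only (0.59, adjusted p 0.0235). Its second probe set had 8.67, 8.73 and 8.01 in NcstnKO GMP, 8.37, 8.30 and 7.12 in WT GMP, and 8.28, 8.36 and 8.20 in LSK. It ran the other way at -0.35 (SE 0.33, adjusted p 0.441), with WT GMP array 3 far below the other two. Csf3r, the G-CSF receptor, had 9.48, 9.94 and 9.96 in NcstnKO GMP, 9.94, 9.99 and 9.97 in WT GMP, and 10.01, 10.19 and 10.38 in LSK. All WT GMP arrays lay below LSK, by a log2 change of -0.23 (SE 0.15, 95% interval -0.57 to 0.11, adjusted p 0.266). That change is close to the median of all probe sets, and relative to it Csf3r differed by -0.03. Late neutrophil markers, which follow the same lineage, were lower in WT GMP for 9 of 10 genes, with summed levels of 15.02 to 15.42 in WT GMP and 16.05 to 16.48 in LSK, and their part was not tested. In the fit without the arrays of discordant sex 6 of the 10 were lower.

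**Figure D3:**
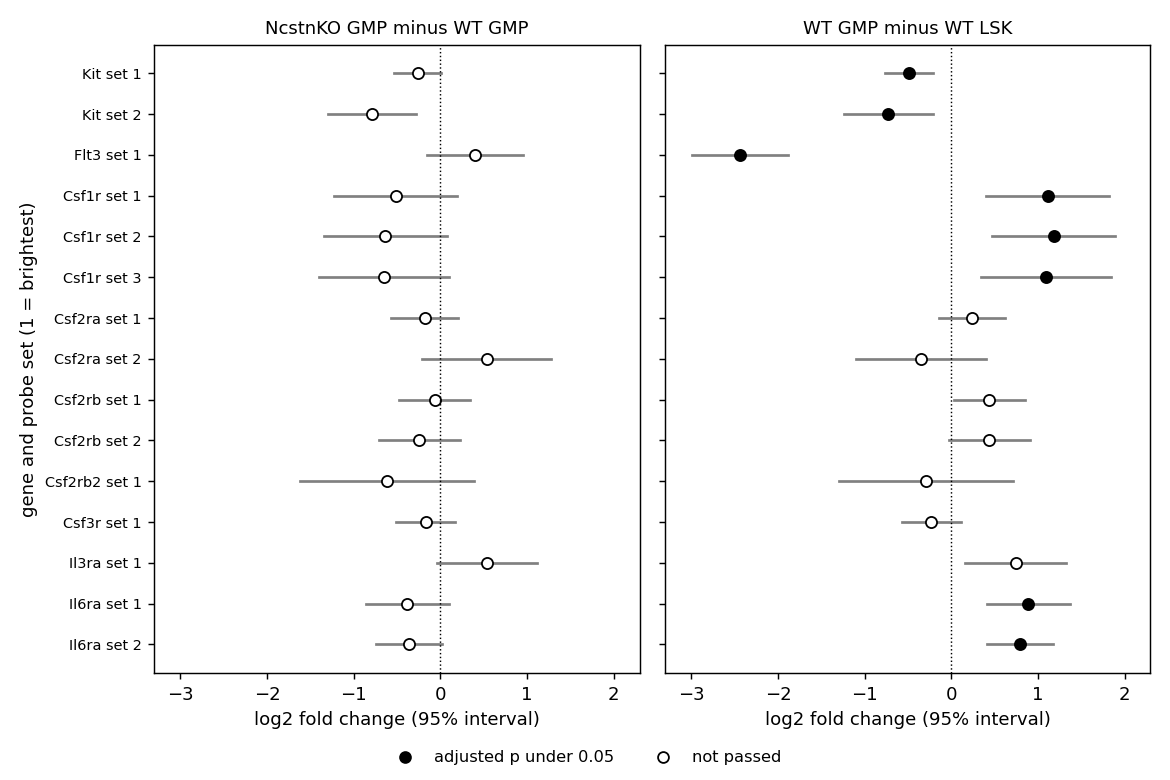
Log2 change with its 95% interval for all 15 probe sets of the 9 receptors, NcstnKO GMP minus WT GMP on the left and WT GMP minus WT LSK on the right. Filled points passed an adjusted p of 0.05 and open points did not. On the right, Flt3 and both Kit probe sets are filled below 0, and the 3 Csf1r and 2 Il6ra probe sets above 0. On the left no point is filled, and the second Kit probe set has an interval of -1.30 to -0.28.

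In NcstnKO against WT GMP, the comparison of progenitors with and without nicastrin, 0 of the 15 probe sets passed the limma test. Over all probe sets tested 1.75% passed, 0.604% higher and 1.15% lower. At an unadjusted p under 0.05 there was 1 member, the second Kit probe set, against 19.8% of all probe sets. Arrays of the groups did not overlap for 2 members, both of Kit, against 27.2% of all. The change was below 0 for 12 members and above 0 for 3, with a median of -0.26 beside 0.04 over all probe sets. By the brightest probe set of each gene, 7 of 9 were below 0 and 2 above, with a median of -0.18. Without the arrays of discordant sex the sign turned to above 0 for all Csf1r and Il6ra probe sets and for Csf2rb2. The other members kept their sign in that fit. With 3 arrays a group the intervals were wide, and a missed threshold does not show that the receptors were equal.

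Among the kinase receptors, both Kit probe sets were lower on all 3 NcstnKO arrays than on any WT GMP array. Their log2 changes were -0.26 (SE 0.12, 95% interval -0.53 to 0.01, adjusted p 0.272) and -0.79 (SE 0.22, 95% interval -1.30 to -0.28, adjusted p 0.107). Erythroid markers moved in the same direction, with 5 of 14 lower in NcstnKO GMP, among them Klf1, Car2 and Ermap. None of the 14 passed without the arrays of discordant sex, with either sex covariate, with the Actb ratio or with the replicate block, and 0 to 6 passed when 1 array was left out, with 6 without WT GMP 2, 2 without LSK 2 and 0 without any other array. Kit is also known from erythroid progenitors, the summed level of these markers was 12.86 to 13.55 in NcstnKO GMP and 14.11 to 14.99 in WT GMP (log2), and their part in the Kit values was not tested. Flt3 changed by 0.40 (SE 0.24, 95% interval -0.16 to 0.95, adjusted p 0.411), with NcstnKO arrays reaching higher and overlapping the WT ones. Csf1r gave -0.52 (SE 0.31, 95% interval -1.23 to 0.19, adjusted p 0.403), -0.64 (adjusted p 0.300) and -0.65 (adjusted p 0.320). Its sign turned without the arrays of discordant sex (0.37, adjusted p 0.883), and with the sex read from transcripts as a covariate the change was -0.06 (adjusted p 0.947). Of 14 monocyte and macrophage markers 2 fell in NcstnKO GMP, C1qa and C1qc, but 0 fell without the arrays of discordant sex, without WT GMP 1 or 3, or without NcstnKO GMP 2 or 3. None of the 14 passed with either sex covariate, with the Actb ratio, with the replicate block or in the fit of NcstnKO and WT GMP alone. The summed level of these monocyte and macrophage markers was 13.01 to 13.27 in NcstnKO GMP and 12.94 to 13.03 in WT GMP.

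The cytokine chains were likewise not called. Il3ra changed by 0.54 (SE 0.26, 95% interval -0.04 to 1.12, adjusted p 0.286), with NcstnKO arrays 1 and 2 above all WT GMP arrays and array 3 among them. Il6ra changed by -0.38 (SE 0.21, 95% interval -0.86 to 0.10, adjusted p 0.361) and -0.36 (SE 0.17, 95% interval -0.74 to 0.02, adjusted p 0.278). Without NcstnKO array 3, the lowest, the change of the brighter Il6ra probe set was -0.11 (adjusted p 0.690). Without the arrays of discordant sex the sign turned for both Il6ra probe sets, with changes of 0.09 and 0.13. Csf2rb gave -0.07 (SE 0.18, 95% interval -0.48 to 0.34, adjusted p 0.877) and Csf3r -0.17 (SE 0.15, 95% interval -0.51 to 0.17, adjusted p 0.576). Csf2ra gave -0.18 (SE 0.17, adjusted p 0.605) in its brighter and 0.54 (SE 0.33, adjusted p 0.413) in its second probe set, so its probe sets differed in sign. Csf2rb2 gave -0.62 (SE 0.44, 95% interval -1.62 to 0.39, adjusted p 0.483).

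The scatter among NcstnKO arrays was not even. NcstnKO array 3 was the lowest of its group for 10 of the 15 probe sets, and NcstnKO array 1 for 4, among them the brighter probe sets of Csf2ra and Csf2rb and that of Csf3r. In WT GMP, array 1 was the lowest of its group for 13 of 15. The log2 ratio of the 3′ to the 5′ Actb control probe set, a sign of RNA degradation, was 0.899 ± 0.140 in NcstnKO GMP and 0.577 ± 0.111 in WT GMP (SD, n = 3 each), with 0.748 ± 0.108 in LSK. Whether it bears on these receptor values was tested only as a covariate: 0 members passed in NcstnKO against WT GMP with it, and 3 rather than 8 in WT GMP against LSK.

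NcstnKO GMP and WT GMP were each set against the same LSK arrays, so the 2 sets of changes share samples and are given side by side. Against LSK, 4 of the 15 probe sets passed in NcstnKO GMP, with Il3ra higher and Flt3 and both Kit probe sets lower. Over all probe sets 43.5% passed in that comparison, 11.4% higher and 32.1% lower. Arrays of the groups did not overlap for 7 members, against 54.3% of all, and 7 members had an unadjusted p under 0.05, against 51.7% of all. Flt3 changed by -2.04 in NcstnKO GMP and -2.43 in WT GMP. The brighter Kit probe set changed by -0.75 in NcstnKO GMP (adjusted p 0.00142) and -0.49 in WT GMP, and the second by -1.51 (adjusted p 0.000969) and -0.73. Csf1r changed by 0.59 in NcstnKO GMP (adjusted p 0.154) and 1.11 in WT GMP, and Il6ra by 0.51 (adjusted p 0.0814) and 0.89. In NcstnKO GMP this Csf1r probe set passed after centring (0.98, adjusted p 0.0265) and with transcript sex as a covariate (1.05, adjusted p 0.0256). Il6ra passed there after quantile normalization (0.86, adjusted p 0.0102), after centring (0.89, adjusted p 0.00784), without NcstnKO array 3 (0.78, adjusted p 0.00272) and without the arrays of discordant sex (0.90, adjusted p 0.0418). Without the arrays of discordant sex the brighter Kit probe set did not pass in NcstnKO GMP (-0.60, adjusted p 0.0831) and Csf2rb2 did (-1.12, adjusted p 0.0245). The brighter Csf2rb probe set passed higher in NcstnKO GMP with quantile normalization (0.51, adjusted p 0.0377), centring (0.75, adjusted p 0.00733), the Actb ratio (adjusted p 0.0314) and without NcstnKO array 1 (adjusted p 0.0175). Csf3r passed lower there with the replicate block (adjusted p 0.0347), labelled sex (adjusted p 0.0116), probe sets averaged (adjusted p 0.0474) and without LSK 1 (adjusted p 0.0481). The block joins NcstnKO and WT arrays by number, for which these data gave no ground. The direct test between NcstnKO and WT GMP, given above, passed for none of them. A call in WT GMP and none in NcstnKO GMP thus does not show a difference between the genotypes.

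Other genes of these pathways were counted in lists chosen for their known roles, each gene by its brightest probe set. Of the ligands of the receptors and their close relatives, 9 of 12 were measured, and in each group 6 of the 9 lay at or below the background limit on all arrays. In NcstnKO against WT GMP 0 of 9 passed the limma test, with 1 at an unadjusted p under 0.05. Over all probe sets these shares were 1.75% and 19.8%. Between WT GMP and LSK 2 rose and 2 fell in WT GMP. Il6, the ligand of the Il6ra chain, had log2 intensities of 7.70, 7.82 and 7.27 in NcstnKO GMP, 7.83, 8.27 and 7.48 in WT GMP, and 3.80, 4.40 and 4.01 in LSK, where it was at background. It was at least 10.95-fold higher in WT GMP than in LSK (adjusted p 3.65e-05). Csf1, a ligand of Csf1r, rose by 0.71 (SE 0.22, adjusted p 0.0366). Il11 was lower in WT GMP, by at least 1.82-fold because WT GMP was at background, and Il5 was called lower with both groups at background. Leaving out the arrays of discordant sex gave 1 rise and 1 fall.

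Of the other hematopoietic cytokine receptors, 24 of 28 were measured. In NcstnKO against WT GMP 0 passed the limma test, with 7 at an unadjusted p under 0.05 and a median log2 change of 0.07. Over all probe sets 1.75% passed and 19.8% had such an unadjusted p. Averaging the probe sets of a gene gave 1 rise and 1 fall, and a trended prior gave 1 fall. The smallest p belonged to Epor, the erythropoietin receptor (-1.49, SE 0.33, adjusted p 0.0607), followed by Tgfbr2 (-0.57, adjusted p 0.0886), Tgfbr1 and Ifnar1. Against LSK, 2 rose and 15 fell in WT GMP, with a median of -0.96 beside -0.20 over all probe sets. Ghr, the growth hormone receptor, fell by 3.13 on the log2 scale (adjusted p 0.000198), and Il1r1, a receptor of interleukin-1, fell by 1.59 (adjusted p 0.000243). Tgfbr2, a receptor of transforming growth factor β, fell by 1.21 (adjusted p 0.000636), while Ifngr1, a receptor chain of interferon-γ, rose by 1.24 (adjusted p 0.000228). The count depended on scaling: quantile normalization gave 3 rises and 6 falls, centring 4 rises and 8 falls, and the fit without the arrays of discordant sex 1 rise and 8 falls.

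Of the JAK kinases and STAT factors, 10 of 11 were measured, and in NcstnKO against WT GMP 1 fell and 0 rose. Over all probe sets 1.15% fell and 0.604% rose. Jak1, a kinase bound to many cytokine receptors, had log2 intensities of 10.13, 10.33 and 10.19 in NcstnKO GMP, 10.65, 10.85 and 10.81 in WT GMP, and 11.65, 11.42 and 11.63 in LSK. The 3 groups did not overlap, and NcstnKO GMP was 1.47-fold lower than WT GMP (log2 change -0.56, SE 0.11, adjusted p 0.0451). This call was lost under most alternatives, among them quantile normalization (-0.51, adjusted p 0.0563), centring (-0.52, adjusted p 0.0521) and leaving out any 1 of the 9 arrays. Stat5b, one of the factors through which the β chains signal, gave -0.50 (SE 0.12, adjusted p 0.0688) with all NcstnKO arrays below WT GMP. Stat2 gave -0.52 (adjusted p 0.0985) and Jak2 -0.42 (adjusted p 0.131). In WT GMP against LSK 0 rose and 7 fell, with a median of -0.39 beside -0.20 over all probe sets. Among the falls were Stat4 (-1.25, adjusted p 0.000613), Jak3 (-1.22, adjusted p 0.00170), Jak1 (-0.80, adjusted p 0.000867) and Stat2 (-0.75, adjusted p 0.00473). With either other scaling 3 fell, and without the arrays of discordant sex 2 fell.

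Of the adaptors, kinases and phosphatases that act below these receptors, 30 of 37 were measured. In NcstnKO against WT GMP 0 passed the limma test, against 1.75% of all probe sets. The median change was -0.23 beside 0.04 over all probe sets. At an unadjusted p under 0.05 there were 16 of the 30, against 19.8% of all. The 0 depended on the fit. With 1 probe set for each gene 6 fell, with a pseudocount 5, with a trended prior 4 and with the dim filter 2. With either other scaling 0 passed. The smallest p belonged to Pik3r1, a regulatory subunit of PI3 kinase (-0.60, SE 0.13, adjusted p 0.0552), Pik3cg, a catalytic subunit of it (-0.47, adjusted p 0.0572), the adaptor Crkl (-0.49, adjusted p 0.0692) and the phosphatase Ptpn11 (-0.41, adjusted p 0.0718). For these 4 genes all NcstnKO arrays lay below all WT GMP arrays. Set against LSK, 3 of 30 rose and 11 fell in WT GMP, with a median of -0.19. Over all probe sets the median was -0.20, 6.04% rose and 28.8% fell, so the list lay near the level of all probe sets. Dok2, an adaptor that dampens receptor signals, fell by 2.12 (adjusted p 0.000624), and Plcg1, a phospholipase recruited to tyrosine kinase receptors, fell by 0.86 (adjusted p 0.000936). Pik3cg and Gab3 fell by 0.69 and 0.89. This split turned with scaling: quantile normalization gave 4 rises and 8 falls, and centring gave 10 rises and 6 falls. Without the arrays of discordant sex 0 rose and 3 fell.

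All 14 STAT5 target genes of the list were measured. In NcstnKO against WT GMP 0 passed the limma test, with 3 at an unadjusted p under 0.05: Ccnd2 at -0.50 (adjusted p 0.0857), Id1 at 0.93 (adjusted p 0.0965) and Pim1 at 0.54 (adjusted p 0.0992). Gfi1, the next by p, gave 0.26 (adjusted p 0.443). Over all probe sets 1.75% passed the test and 19.8% had an unadjusted p under 0.05. With a trended prior 1 of the 14 fell. In WT GMP against LSK 1 rose and 9 fell, with a median of -0.53 beside -0.20 over all probe sets. Cish, a feedback inhibitor of cytokine receptors, had log2 intensities of 6.95, 6.47 and 7.62 in NcstnKO GMP, 6.37, 7.08 and 6.65 in WT GMP, and 10.22, 10.48 and 9.64 in LSK. It was 10.6-fold lower in WT GMP than in LSK (adjusted p 0.000199). Socs2, another such inhibitor, was 9.74-fold lower (adjusted p 0.000120), Il2ra, a chain of the interleukin-2 receptor, at least 6.74-fold lower (adjusted p 0.000114), and the cyclin Ccnd1 2.64-fold lower (adjusted p 8.88e-05). Gfi1, a transcriptional repressor needed for granulocytes to form, was the gene that rose (0.70, adjusted p 0.0125). After quantile normalization 1 rose and 7 fell, after centring 2 rose and 5 fell, and without the arrays of discordant sex 1 rose and 4 fell.

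**Figure D4:**
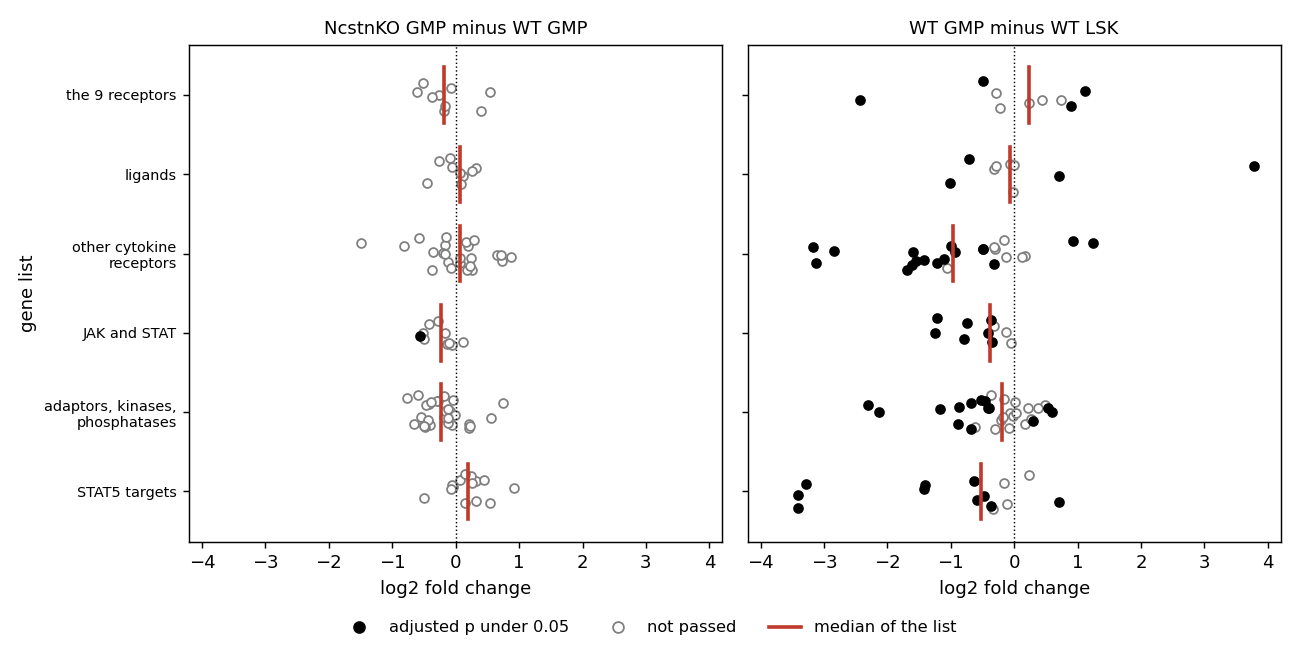
Log2 change of each gene's brightest probe set for the 9 receptors and 5 lists of other genes of their pathways, NcstnKO GMP minus WT GMP on the left and WT GMP minus WT LSK on the right. Filled points passed an adjusted p of 0.05, open points did not, and the red bar is the median of the list. Points are spread vertically within a list for legibility. The left panel has 1 filled point, Jak1 at -0.56, and in the right panel Cish and Socs2 lie below -3. The filled points of Il6, Il11, Lifr, Lepr and Il2ra there stand for bounds, since 1 of the groups was at background, and for Il5 both groups were.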

How the data were processed

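RNA from 9 samples was amplified, labelled with biotin and hybridized to Affymetrix mouse arrays, per the labels' protocols. The authors deposited linear intensities per probe set, processed with RMA (version not given in the sources used here), per the submitters' processing notes; whether GMP and LSK arrays were normalized together is not given there. The log2 of the deposited intensities was taken before any test. Of 45101 probe sets, 64 controls were left out. Symbols came from GEO's platform annotation (34945 probe sets with 1 symbol, 932 with several, 9160 with none), and all 9 member genes matched RefSeq by Entrez ID.

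limma 3.58.1 in R 4.3.3 fitted 3 group means over 9 arrays (6 residual degrees of freedom). Tests were 2-sided, with Benjamini-Hochberg adjustment over all 45037 probe sets. The fit was tested on simulated data. The background limit of an array was the 95th percentile of its 27 unspiked Bacillus subtilis control probe sets, and a group at or below it on all arrays, or in its mean, counted as at background. Arrays have no read depth, and precision is limited by how few they are.

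Named were all members, up to 4 genes of each pathway list and 3 of each marker list with the smallest p in a comparison, Ncstn, and the 3 most similar profiles of members spanning at least 1 (log2). Il6st was added after its values were seen. The members, lists and tests were chosen with earlier results of these data known.

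Deviations of same-numbered WT GMP and LSK arrays from their group means correlated at 0.219, 0.238 and 0.291 across probe sets. The numbers were therefore used as a block in alternative fits, from the data and not the labels. The main tests had no block and did not take this pairing into account. NcstnKO arrays were not paired (-0.092, 0.004 and 0.022 with WT GMP, and 0.044, -0.047 and 0.011 with LSK). In comparisons with NcstnKO GMP the block therefore had no ground in the data. Alternatives were 2 scalings, probe set summaries, a pseudocount, a dim filter, a trended prior, fits of 2 groups, replicate blocks, sex and Actb ratio as covariates, and leaving out arrays.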

Additional observations from a re-analysis of the deposited data

How the results depend on the processing

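In NcstnKO against WT GMP, 0 member probe sets passed under any of the 23 alternatives, and all 333 recomputed member values stayed on the same side of the threshold. In WT GMP against LSK, 278 of 333 stayed, 36 lost and 19 gained their call, and none reversed. The count of 8 member probe sets became 4 with the labelled sex as a covariate, 3 with the Actb ratio, 2 without the 4 arrays of discordant sex, and 4 to 10 when 1 array was left out (4 without LSK 1 or WT GMP 2, 5 without WT GMP 3). For NcstnKO GMP against LSK the count of 4 became 9 after quantile normalization, 10 after centring and 7 with transcript sex. Over all probe sets the 19575 calls became 19787, 24529 and 14844 in these fits. The member count was 5 genes with probe sets averaged, and 4 to 6 when 1 array was left out. The cause of these shifts was not tested. With the replicate block in a fit of WT GMP and LSK alone, added after seeing the data, the count stayed at 8, with the second Kit probe set lost (adjusted p 0.0728) and Il3ra gained (adjusted p 0.0140); with the block in the fit of all 9 arrays these were 0.0633 and 0.00508. The block changed no other call of a member there. Ncstn in NcstnKO against WT GMP kept its direction in all 23 alternatives and missed the threshold in 3 of them. Over all probe sets, the calls between NcstnKO and WT GMP ranged from 0 to 1415, so a count of 0 members says little about stability. They were 0 with the Actb ratio, 1 with the labelled sex, 4 with transcript sex and 9 with the replicate block. A marker list with no call in these fits therefore says little about that list. Without the arrays of discordant sex, WT GMP and NcstnKO GMP have 1 array each, which is assumed to vary like the LSK arrays.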
